A study of Mus musculus with 9 samples.

Results

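The iron handling genes are 9 genes of iron uptake, storage, sensing and release from heme: Trf, Tfrc, Fth1, Ftl1, Ncoa4, Aco1, Ireb2, Hmox1 and Hmox2. They were chosen by symbol, and all 9 were among the 11315 genes measured in each library. The libraries came from brain cells of C57BL/6 mice at postnatal day 60, sorted by fluorescence and sequenced as bulk RNA, in 3 groups of 3. NDRG1-eGFP cells are called myelinating oligodendrocytes by the labels, PLP-GFP cells pre-myelinating oligodendrocytes, and PDGFRa-GFP cells oligodendrocyte progenitors. The reporter of the sort was the only difference in genotype that the labels gave between the groups, and they named no treatment. They do not say whether the 3 libraries of a group came from separate animals, so each p-value rests on the spread among these libraries alone, which may be technical.

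Iron reaches cells bound to transferrin (Trf), which the transferrin receptor (Tfrc) carries inside. Ferritin, a shell of heavy (Fth1) and light (Ftl1) chains, stores it, and NCOA4 (Ncoa4) is the cargo receptor that takes ferritin to lysosomes, where the iron is freed. The iron regulatory proteins IRP1 (Aco1) and IRP2 (Ireb2) bind hairpins called iron-responsive elements: in low iron they block translation of ferritin mRNA and protect transferrin receptor mRNA from decay. Heme oxygenases 1 (Hmox1, inducible) and 2 (Hmox2, constitutive) release iron from heme. Oligodendrocytes are the main iron-holding cells of the adult brain, make transferrin themselves, and need iron for the enzymes of lipid synthesis.

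The hairpins that tie these mRNAs to IRP1 and IRP2 are shown because the ferritin chains and the receptor carry them at opposite ends of the message. They were searched on the sense strand of 1 GENCODE M21 transcript per gene (GRCm38). The motif was a C, a 5-base stem arm, the loop CAGTG with 1 base of any kind, and a second 5-base arm pairing with the first, G-T pairs allowed. The capitals mark CAGTG.
Fth1 5′ UTR, chr19:9982732-9982760, plus strand: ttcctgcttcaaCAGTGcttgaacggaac
Ftl1 5′ UTR, chr7:45459779-45459807, minus strand: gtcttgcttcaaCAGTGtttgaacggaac
Tfrc 3′ UTR site 1, chr16:32631219-32631247, plus strand: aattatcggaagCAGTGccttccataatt
Tfrc 3′ UTR site 2, chr16:32631598-32631626, plus strand: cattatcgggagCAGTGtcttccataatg
Tfrc 3′ UTR site 3, chr16:32631663-32631691, plus strand: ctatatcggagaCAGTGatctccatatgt
Tfrc 3′ UTR site 4, chr16:32631710-32631738, plus strand: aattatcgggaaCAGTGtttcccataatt

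The ferritin chains each held 1 match in the 5′ UTR, and Tfrc held 4 in the 3′ UTR. Of 21899 genes scanned, 0.0959% had a match in the 5′ UTR and 0.534% in the 3′ UTR. The UTRs of the other 6 members held no match to this motif.

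The deposited values are logarithms to base 2 that the authors had normalized, and sequencing depth is unknown. Sorted values were nearly the same in every library, so that a value stands for a rank. Differentiated oligodendrocyte markers took 11.4% to 11.7% of each library's summed linear values in NDRG1-eGFP cells, 10.5% to 10.8% in PLP-GFP cells and 9.45% to 11.1% in PDGFRa-GFP cells. Progenitor markers took 0.0872% to 0.0994%, 0.0947% to 0.115% and 0.0576% to 0.100% in the same order of groups, a sum led by Lrrn1, and PDGFRa-GFP replicate 3 held the lowest share. Their median log2 fold change over the 9 measured ran towards PDGFRa-GFP cells, at -0.73 for PLP-GFP and -0.97 for NDRG1-eGFP against PDGFRa-GFP. In both, 1 marker was called in each direction. Of all genes 8.46% were called higher and 8.53% lower in the first comparison, and 10.7% and 10.4% in the second. Pdgfra itself averaged 5.70 in NDRG1-eGFP cells, 2.71 in PLP-GFP cells and 6.63 in PDGFRa-GFP cells, and set against the last group it was called lower for PLP-GFP (limma adjusted p = 0.0274) but not called for NDRG1-eGFP (adjusted p = 0.529). Every measured progenitor marker but Lrrn1 (0.49) was lower in NDRG1-eGFP than in PDGFRa-GFP cells, of which Vcan was called (-4.04, adjusted p = 0.0352). For PLP-GFP against PDGFRa-GFP they went both ways. Pdgfra, Cspg4, Vcan, Gpr17 and Sox6 were lower, and Matn4, Lrrn1, Ptprz1 and Olig2 higher. The PDGFRa-GFP libraries, labelled as progenitors, thus also held differentiated markers at a share near that of the other groups. Immediate early and stress genes took 0.378% and 0.477% of the sum in NDRG1-eGFP replicates 1 and 3 but 0.0860% in replicate 2, and 0.0539% to 0.0667% in PLP-GFP libraries. In NDRG1-eGFP cells 13 of 20 were called higher against PLP-GFP cells, where 26.1% of all genes were. Against PDGFRa-GFP cells, where 10.7% of all genes were called higher, 0 of these 20 were. They took 0.437% and 0.442% in PDGFRa-GFP replicates 1 and 2 and 0.0710% in replicate 3, so NDRG1-eGFP replicate 2 and PDGFRa-GFP replicate 3 each stood apart from their group. In bulk RNA, fewer cells of a type and less RNA per cell cannot be told apart.

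Ncoa4 and Ftl1 were lower, and Hmox2 was higher, in NDRG1-eGFP cells than in either of the other groups. Trf and Fth1 were among the most abundant mRNAs of all 3 groups, and Trf, Aco1 and Hmox1 passed the test in no comparison. A gene was called at a limma adjusted p (Benjamini-Hochberg over all 11315 genes) under 0.05. For NDRG1-eGFP against PLP-GFP, 6 of the 9 were called, 2 higher and 4 lower, where 48.3% of all genes tested were called. For PLP-GFP against PDGFRa-GFP, 2 of the 9 were called, 1 in each direction, against 17.0% of all genes. For NDRG1-eGFP against PDGFRa-GFP, 3 of the 9 were called, 1 higher and 2 lower, against 21.1% of all genes. Each count lies within 2 genes of what its background share gives for 9 genes, so the counts show nothing particular to iron genes. The comparisons share libraries and are not independent.

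**Figure D1:**
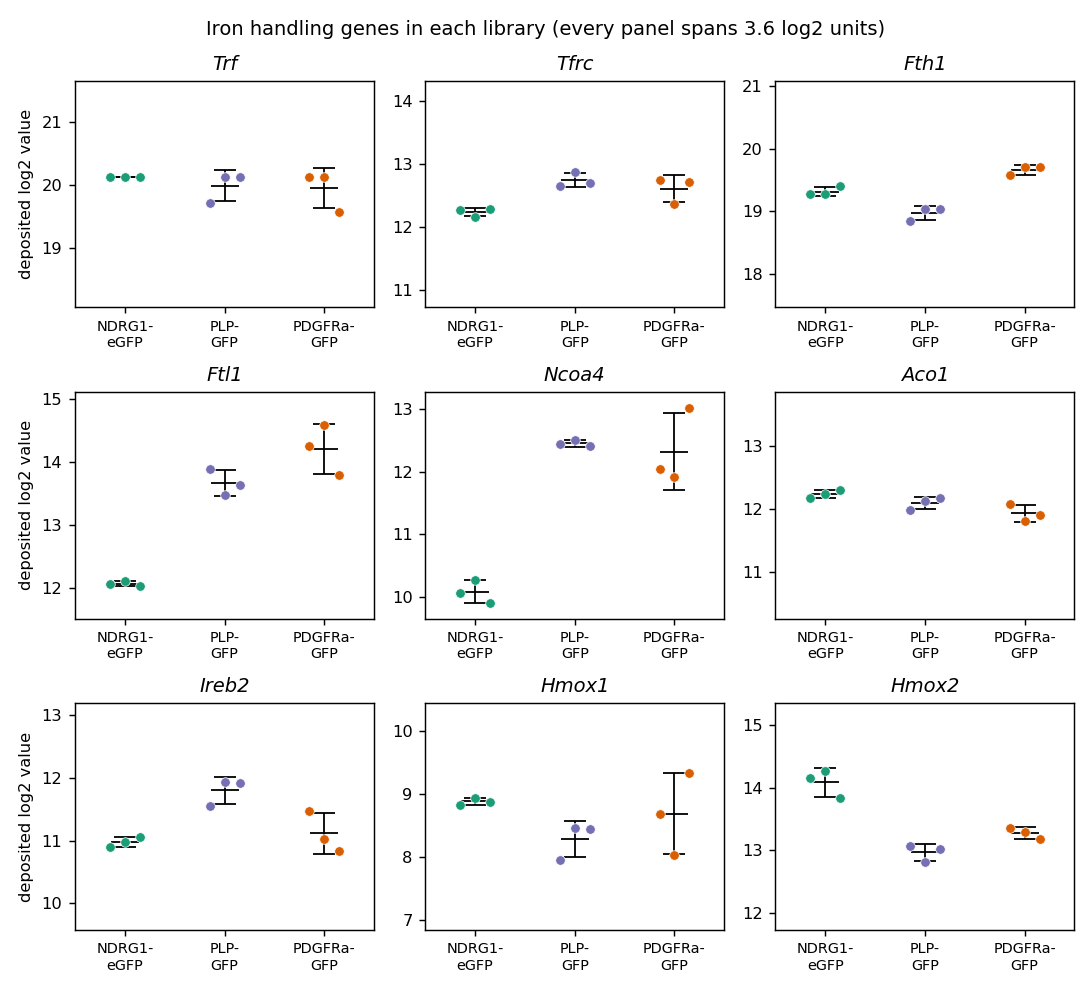
Deposited log2 value (vertical axis) of the 9 iron handling genes in each library, by reporter group from NDRG1-eGFP on the left to PDGFRa-GFP on the right; points are libraries, bars the mean and 1 SD of 3 libraries. Ftl1 and Ncoa4 lie apart in NDRG1-eGFP libraries, at 12.03 to 12.12 and 9.91 to 10.27, below every library of the other groups, and Hmox2 at 13.83 to 14.26 lies above them.

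Iron uptake was described first. Trf (ENSMUSG00000032554, chr9:103204001-103230444), the transferrin gene, had 20.13 in all 3 NDRG1-eGFP libraries, 19.71, 20.13 and 20.13 in PLP-GFP libraries and 20.13, 20.13 and 19.58 in PDGFRa-GFP libraries. From the top of all genes it held rank 2 in 7 of the 9 libraries, rank 3 in PLP-GFP replicate 1 and rank 4 in PDGFRa-GFP replicate 3. Each of the top ranks carries the same value in every library, so the SD of 0.00 in NDRG1-eGFP cells is a fixed rank and not a precision. The groups overlapped. The log2 fold change was 0.14 ± 0.19 (SE) for NDRG1-eGFP against PLP-GFP, with a 95% interval of -0.28 to 0.56 and a limma adjusted p of 0.567. For NDRG1-eGFP against PDGFRa-GFP it was 0.18 ± 0.19, with an interval of -0.23 to 0.60 and an adjusted p of 0.51. For PLP-GFP against PDGFRa-GFP it was 0.04 ± 0.19, with an interval of -0.37 to 0.46 and an adjusted p of 0.892. Trf alone took 1.87% of the summed linear values in the 7 libraries where it was at rank 2. At its locus, the annotated read-through gene Gm20425 covers 63.5% of the Trf exon bases on the same strand.

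Tfrc (ENSMUSG00000022797, chr16:32608920-32632794), the receptor that takes up iron-loaded transferrin, had 12.28, 12.17 and 12.29 in NDRG1-eGFP libraries, 12.66, 12.88 and 12.71 in PLP-GFP libraries and 12.75, 12.37 and 12.72 in PDGFRa-GFP libraries. Every NDRG1-eGFP library lay below every other library. NDRG1-eGFP cells had less Tfrc than PLP-GFP cells, with a log2 fold change of -0.51 ± 0.13 (adjusted p = 0.0106), a level 1.42-fold lower. Against PDGFRa-GFP cells the log2 fold change was -0.37 ± 0.13 and missed the threshold (adjusted p = 0.0754). PLP-GFP and PDGFRa-GFP libraries overlapped, at a log2 fold change of 0.14 ± 0.13 (adjusted p = 0.493). The call was lost without PLP-GFP replicate 2 (-0.44, adjusted p = 0.0538) and when each library's trend on transcript length was removed (-0.15, adjusted p = 0.385). Brain endothelium also expresses Tfrc. Of 11 endothelial markers 5 were measured, and together they took 0.0016% to 0.0044% of the sum in NDRG1-eGFP cells, 0.0019% to 0.0024% in PLP-GFP cells and 0.0022% to 0.0036% in PDGFRa-GFP cells. Erythroid cells express Tfrc and make heme. Of 10 erythroid markers 7 were measured, at 0.0625% to 0.0723% of the sum in NDRG1-eGFP cells, 0.0475% to 0.0614% in PLP-GFP cells and 0.0440% to 0.0871% in PDGFRa-GFP cells. For NDRG1-eGFP against PLP-GFP 3 of the 7 were called higher and 1 lower, where 26.1% of all genes were called higher and 22.2% lower. The median log2 fold change of the 7 was -1.73. The part of either cell type in the Tfrc values was not tested.

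Ferritin chains behaved unlike each other. Fth1 (ENSMUSG00000024661, chr19:9980598-9985098), the heavy chain, whose ferroxidase activity oxidizes iron for storage, held ranks 3 to 9 from the top of all genes. It had 19.28, 19.28 and 19.40 in NDRG1-eGFP libraries, 18.84, 19.04 and 19.04 in PLP-GFP libraries and 19.58, 19.71 and 19.71 in PDGFRa-GFP libraries. The 3 groups did not overlap, with PDGFRa-GFP highest, NDRG1-eGFP between and PLP-GFP lowest. PLP-GFP cells were lower than PDGFRa-GFP cells by a log2 fold change of -0.69 ± 0.13 (adjusted p = 0.0101), and this call was lost with the length trend removed (-0.35, adjusted p = 0.243). NDRG1-eGFP cells were higher than PLP-GFP cells by 0.35 ± 0.13 (adjusted p = 0.0465). That call did not survive leaving out any 1 of 7 libraries (adjusted p of 0.061 to 0.142), held without PDGFRa-GFP replicate 1 or 3, was lost when libraries were recentred by the median ratio (0.27, adjusted p = 0.141), and turned to -0.27 (adjusted p = 0.264) with the length trend removed. Against PDGFRa-GFP cells the NDRG1-eGFP value was -0.35 ± 0.13 (adjusted p = 0.0798). Rank 3 carries 19.71 and rank 9 carries 18.84 in every library, so the whole Fth1 range spans 6 ranks.

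Ftl1 (ENSMUSG00000050708, chr7:45457944-45459884), the light chain, which favours formation of the iron core, was far lower in NDRG1-eGFP cells. It had 12.06, 12.12 and 12.03 in NDRG1-eGFP libraries, 13.89, 13.48 and 13.63 in PLP-GFP libraries and 14.25, 14.60 and 13.80 in PDGFRa-GFP libraries. NDRG1-eGFP libraries lay below every other library, while PLP-GFP and PDGFRa-GFP libraries overlapped. The log2 fold change was -1.60 ± 0.19 against PLP-GFP cells (adjusted p = 0.000146), a level 3.02-fold lower. It was -2.15 ± 0.19 against PDGFRa-GFP cells (adjusted p = 2.57e-05), a level 4.43-fold lower. Both calls held under all 19 alternatives of each comparison, at -2.36 to -1.49 and -2.38 to -1.96. PLP-GFP against PDGFRa-GFP gave -0.55 ± 0.19 (adjusted p = 0.0675), and -0.76 (adjusted p = 0.00652) without PDGFRa-GFP replicate 3.

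Reads of Ftl1 could be split between copies by the authors' counting, so its level is uncertain. Of the 50-base windows of its longest mRNA, 85.2% also occur at other annotated loci, and over all its transcripts 54.9% do, at 11 loci. The largest share, 47.3%, is with Ftl1-ps1 on chromosome 13, and none of these loci was among the measured symbols. Gm10252, with 21.5%, overlaps Ftl1 itself on the opposite strand. Genes with over 40% of windows shared, matched on either strand, had lower log2 fold changes as a class. The median of these 279 genes was -0.50 for NDRG1-eGFP against PLP-GFP, with 42.3% called lower and 20.1% higher. In the 8639 genes with at most 5% shared the median was 0.11 and 20.3% were called lower. Against PDGFRa-GFP cells the medians were -0.40 and 0.16, with 37.6% and 7.20% called lower. Hmox2, with 41.9% of windows shared, is in the class of over 40% and was higher in NDRG1-eGFP cells in both comparisons (1.11 and 0.80). The part of shared sequence in the Ftl1 difference was not tested. For Fth1, which has many pseudogenes, exact 50-base matches to other loci covered only 1.59% of windows.

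Ncoa4 (ENSMUSG00000056234, chr14:32159865-32179855), the receptor for ferritin breakdown, was the member that varied most. It had 10.08, 10.27 and 9.91 in NDRG1-eGFP libraries, 12.43, 12.51 and 12.40 in PLP-GFP libraries and 12.03, 11.91 and 13.01 in PDGFRa-GFP libraries. NDRG1-eGFP libraries lay below all others, and the PDGFRa-GFP libraries fell on both sides of the PLP-GFP ones, replicate 3 above and replicates 1 and 2 below. The log2 fold change was -2.36 ± 0.25 against PLP-GFP cells (adjusted p = 7.95e-05), a level 5.13-fold lower. It was -2.23 ± 0.25 against PDGFRa-GFP cells (adjusted p = 0.000191), a level 4.69-fold lower. Both calls held under all 19 alternatives, at -2.45 to -2.19 and -2.44 to -1.88. Of all genes, 95.8% had a smaller absolute log2 fold change in the first comparison and 97.3% in the second. Between PLP-GFP and PDGFRa-GFP cells it was 0.13 ± 0.25 (adjusted p = 0.748), and 0.48 (adjusted p = 0.0251) without PDGFRa-GFP replicate 3. Ncoa4 shares 17.9% of its windows, and 43.1% of those of its longest mRNA, with 1 locus, the processed pseudogene Gm6768 on chromosome 12. Whether reads shared with that copy enter the difference was not tested.

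**Figure D2:**
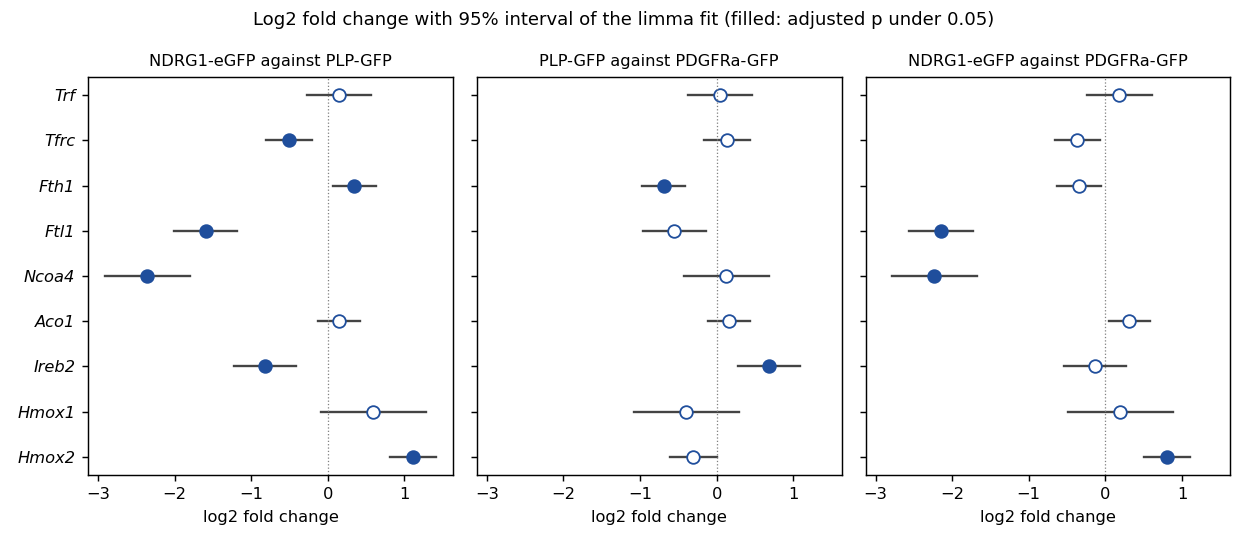
Log2 fold change (horizontal axis, first group minus second) of the 9 genes in the 3 comparisons with the 95% interval of the limma fit; filled points have an adjusted p under 0.05. Ftl1 and Ncoa4 have the lowest values in both comparisons of NDRG1-eGFP cells, from -1.60 to -2.36, and Hmox2 the highest, 1.11 and 0.80.

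Of the regulators, Aco1 was the steadiest member. Aco1 (ENSMUSG00000028405, chr4:40143081-40198338) encodes IRP1, which is a cytosolic aconitase when it holds an iron-sulfur cluster. It had 12.18, 12.24 and 12.31 in NDRG1-eGFP libraries, 11.98, 12.13 and 12.18 in PLP-GFP libraries and 12.08, 11.81 and 11.90 in PDGFRa-GFP libraries. Its SD over the 9 libraries was 0.16, and 3.94% of genes had a smaller one. NDRG1-eGFP libraries lay above those of both other groups, with log2 fold changes of 0.15 ± 0.12 against PLP-GFP (adjusted p = 0.34) and 0.31 ± 0.12 against PDGFRa-GFP (adjusted p = 0.0942). The 95% interval of the second ran from 0.04 to 0.58. PLP-GFP against PDGFRa-GFP gave 0.16 ± 0.12 (adjusted p = 0.364).

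Ireb2 (ENSMUSG00000032293, chr9:54863789-54912530) encodes IRP2, which is degraded when iron is plentiful. It had 10.89, 10.98 and 11.06 in NDRG1-eGFP libraries, 11.55, 11.93 and 11.91 in PLP-GFP libraries and 11.47, 11.03 and 10.83 in PDGFRa-GFP libraries. PLP-GFP libraries lay above all others, and the NDRG1-eGFP and PDGFRa-GFP libraries overlapped. NDRG1-eGFP cells were lower than PLP-GFP cells by a log2 fold change of -0.82 ± 0.18 (adjusted p = 0.00434), 1.76-fold lower. PLP-GFP cells were higher than PDGFRa-GFP cells by 0.68 ± 0.18 (adjusted p = 0.0304), 1.61-fold higher. NDRG1-eGFP against PDGFRa-GFP gave -0.14 ± 0.18 (adjusted p = 0.618). The length trend touched both calls: with it removed they were -0.34 (adjusted p = 0.0875) and 0.35 (adjusted p = 0.142). The second was also lost without PLP-GFP replicate 2 (adjusted p = 0.136), PLP-GFP replicate 3 (0.121) or PDGFRa-GFP replicate 2 (0.0803), and when only the groups compared were fitted (0.0661).

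Set side by side per kilobase of transcript, and also as deposited, the level of Aco1 exceeded that of Ireb2 in every library. Deposited values hardly followed length, with a Pearson r of 0.0267 between mean value and log2 transcript length over 11267 genes. Whether they were already scaled for length was not tested, so the size of differences per kilobase is uncertain. The difference per kilobase was 1.86 ± 0.02 log2 units (SD, n = 3) in NDRG1-eGFP libraries, 0.89 ± 0.12 in PLP-GFP libraries and 1.41 ± 0.23 in PDGFRa-GFP libraries. The 3 groups did not overlap, with NDRG1-eGFP libraries between 1.83 and 1.88 and PLP-GFP libraries between 0.79 and 1.02. Set between groups, this difference was 0.97 for NDRG1-eGFP against PLP-GFP and 0.45 for NDRG1-eGFP against PDGFRa-GFP, and 0.59 and 0.22 with the length trend removed. The same difference between Fth1 and Ftl1 was 6.62 ± 0.11, 4.68 ± 0.31 and 4.82 ± 0.41 in the 3 groups, under the limit on Ftl1 reads given above. Between Hmox2 and Hmox1 it was 5.06 ± 0.21, 4.54 ± 0.39 and 4.45 ± 0.71.

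Heme oxygenases differed in level and in how they varied. Hmox1 (ENSMUSG00000005413, chr8:75093621-75100589), the stress-induced enzyme, was the lowest member, below the median of all genes of 10.57. It had 8.83, 8.94 and 8.88 in NDRG1-eGFP libraries, 7.96, 8.47 and 8.44 in PLP-GFP libraries and 8.69, 8.04 and 9.33 in PDGFRa-GFP libraries. NDRG1-eGFP libraries lay above PLP-GFP libraries, and PDGFRa-GFP libraries spread across both. The log2 fold change for NDRG1-eGFP against PLP-GFP was 0.59 ± 0.31 (adjusted p = 0.135). It passed the threshold when PDGFRa-GFP replicate 3 was left out (adjusted p = 0.0405) or when only the groups compared were fitted (adjusted p = 0.0283), and was -0.003 (adjusted p = 0.995) with the length trend removed. Against PDGFRa-GFP the NDRG1-eGFP value was 0.20 ± 0.31 (adjusted p = 0.673), and PLP-GFP against PDGFRa-GFP gave -0.40 ± 0.31 (adjusted p = 0.387). Microglia and macrophages also express Hmox1. Microglial markers, 15 of 16 measured, took 0.0122% to 0.0185% of the sum in NDRG1-eGFP cells, 0.0061% to 0.0084% in PLP-GFP cells and 0.0072% to 0.0121% in PDGFRa-GFP cells. In NDRG1-eGFP cells 10 of the 15 were called higher against PLP-GFP cells, where 26.1% of all genes were. Against PDGFRa-GFP cells 2 of the 15 were called higher, where 10.7% of all genes were. The part of microglia, or of the stress genes given above, in the Hmox1 values was not tested.

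Hmox2 (ENSMUSG00000004070, chr16:4726361-4766742), the constitutive enzyme, had 14.15, 14.26 and 13.83 in NDRG1-eGFP libraries, 13.07, 12.82 and 13.03 in PLP-GFP libraries and 13.36, 13.29 and 13.18 in PDGFRa-GFP libraries. The 3 groups did not overlap. NDRG1-eGFP cells were higher than PLP-GFP cells by a log2 fold change of 1.11 ± 0.14 (adjusted p = 0.000205), 2.16-fold, and higher than PDGFRa-GFP cells by 0.80 ± 0.14 (adjusted p = 0.00326), 1.75-fold. The first call held under all 19 alternatives, at 0.56 to 1.24, the lowest being with the length trend removed. The second held under 18 of 19 (0.52 to 0.93) and was lost where a log2 fold change of at least 1 was required. PLP-GFP against PDGFRa-GFP gave -0.31 ± 0.14 (adjusted p = 0.14).

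Cdip1, a gene on the opposite strand, overlaps 40.2% of the Hmox2 exon bases, and whether the authors counted by strand is not given in the sources used here. Cdip1 averaged 14.92 ± 0.15 in NDRG1-eGFP libraries, 14.43 ± 0.06 in PLP-GFP libraries and 14.47 ± 0.07 in PDGFRa-GFP libraries (SD, n = 3 each). It was higher in NDRG1-eGFP cells by 0.48 ± 0.11 against PLP-GFP (adjusted p = 0.00556) and by 0.45 ± 0.11 against PDGFRa-GFP (adjusted p = 0.0197), smaller differences than those of Hmox2. Ppp4r2 on chromosome 6, which shares 7.16% of the Hmox2 windows, went the other way, at -3.02 ± 0.16 and -2.68 ± 0.16 (adjusted p of 7.72e-07 and 1.19e-06). How reads were split between these genes was not tested.

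Counting libraries rather than p-values, 8 of the 9 genes did not overlap between NDRG1-eGFP and PLP-GFP libraries, all but Trf, where 66.4% of all genes did not. Between PLP-GFP and PDGFRa-GFP libraries 3 of the 9 did not overlap (Fth1, Ireb2 and Hmox2), against 42.3% of all genes. Between NDRG1-eGFP and PDGFRa-GFP libraries 6 of the 9 did not overlap (Tfrc, Fth1, Ftl1, Ncoa4, Aco1 and Hmox2), against 35.3%. Over the 9 libraries, 92.2% of genes had a smaller SD than Ncoa4 (1.19) and 89.2% a smaller one than Ftl1 (0.99), while the median SD was 0.42. Fth1 (0.31), Tfrc (0.26) and Trf (0.22) lay below that median, Hmox2 (0.52) above it, and Ireb2 (0.43) and Hmox1 (0.44) near it.

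Transcript length moved with the groups. Genes of 1000 bases lay 0.26 to 0.48 log2 units above the average over libraries in NDRG1-eGFP libraries and 0.24 to 0.50 below it in PLP-GFP libraries, and genes of 5000 bases lay the other way. PDGFRa-GFP replicates 1 and 2 lay at -0.14 and 0.04 at 1000 bases, and replicate 3 at 0.48. Among the members, Tfrc (4890 bases), Ireb2 (5770) and Ncoa4 (4065) are long, and Ftl1 (968), Fth1 (1494), Hmox1 (1569) and Hmox2 (1730) are short. With each library's length trend removed, Ftl1 and Ncoa4 were called lower and Hmox2 higher in NDRG1-eGFP cells against PLP-GFP cells, at -2.36, -2.19 and 0.56, and no other member was called, while 30.6% of all genes were. Between PLP-GFP and PDGFRa-GFP cells none of the 9 was then called, against 8.09% of genes. Between NDRG1-eGFP and PDGFRa-GFP cells 4 were called, Ftl1 (-2.38), Ncoa4 (-2.27), Fth1 (-0.62, adjusted p = 0.0399) and Hmox2 (0.52), against 14.4%. The median log2 fold change of all genes was 0.08, 0.03 and 0.14 in the 3 comparisons as ordered above. Recentring subtracted from each library the median deviation of its genes from their averages over libraries, which is not the same shift. Recentred values for NDRG1-eGFP against PDGFRa-GFP were 0.70 for Hmox2, -2.25 for Ftl1 and -2.33 for Ncoa4, and Tfrc passed the threshold at -0.47 (adjusted p = 0.0345).

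**Figure D3:**
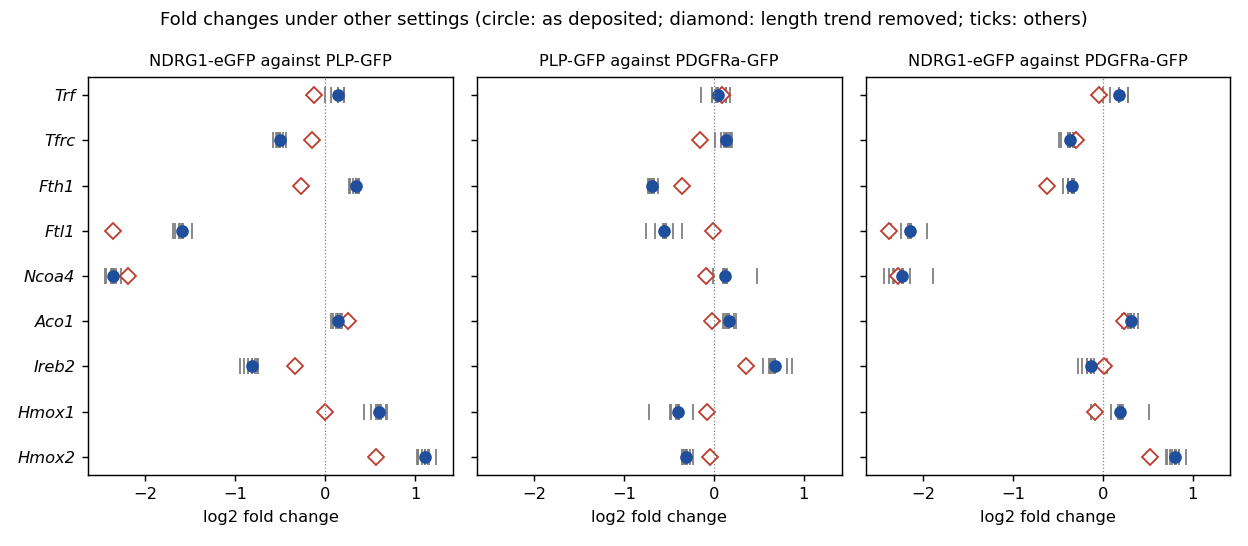
Log2 fold change (horizontal axis) of each gene as deposited (circle), with each library's length trend removed (open diamond) and under the other alternatives (ticks), in the 3 comparisons. Ftl1, Ncoa4 and Hmox2 keep their side of 0 in both comparisons of NDRG1-eGFP cells, while the diamonds of Fth1, Hmox1 and Trf cross 0 against PLP-GFP cells.

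Genes whose values ran most like each member's were listed by Pearson r over the 9 libraries, with no test, since libraries of 1 group share their source. Ncoa4 was followed most closely by Ptges3 (r = 0.998), Ado (0.994) and Hnrnpf (0.994). Ftl1 was followed by Stmn1 (0.992), Usmg5 (0.984) and Ptma (0.983). Hmox2 ran with Ctsa (0.991), Atp5b (0.991) and Rrp36 (0.990), and Ireb2 with Usp47 (0.989), Ctnnd1 (0.988) and Trappc8 (0.984). Tfrc ran with Lrig2 (0.966), Fbxl14 (0.959) and the copper pump gene Atp7a (0.959). The nearest to Aco1 were Srsf12, Lnp and Mvp (0.970 to 0.948), to Hmox1 Bmp2, Xbp1 and Cyp2u1 (0.970 to 0.959), to Fth1 Wnk1, Pikfyve and Scoc (0.957 to 0.939) and to Trf Pnpt1, Snap91 and Snx14 (0.957 to 0.930). Of these neighbours Hnrnpf shares 61.9% of its windows with other loci, Ptma 20.4%, Ptges3 19.6%, Stmn1 17.9%, Cyp2u1 12.3%, Ctsa 11.6%, Usmg5 7.97% and Fbxl14 6.21%, and the others at most 4.95%. Among the members, Ncoa4 and Hmox2 ran opposite to each other (r = -0.91), as did Tfrc and Hmox2 (-0.90), and Ncoa4 ran with Tfrc (0.87) and Ftl1 (0.85). The number of genes with r over 0.9 ran from 8 for Fth1 and 11 for Trf to 500 for Ncoa4 and 539 for Hmox2.

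The rest of the iron pathway was read from lists of iron transport, heme and iron-sulfur cluster genes, of which 58 of 78 were measured. For NDRG1-eGFP against PLP-GFP 29 of the 58 were called, 25 higher and 4 lower, where 26.1% of all genes were called higher and 22.2% lower. The 78 listed did not include the members. With the length trend removed the count was 17 (29.3%), 11 higher and 6 lower, near the 30.6% of all genes then called, of which 14.2% were higher and 16.5% lower. Fibroblast markers moved with this comparison, with 8 of 9 measured called higher, at 0.0068% to 0.0215% of the sum in NDRG1-eGFP cells and 0.0004% to 0.0009% in PLP-GFP cells, and their part in these values was not tested.

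Iron transport had 12 of 24 genes measured, with 2 called higher and 2 lower and a median log2 fold change of -0.33. Snx3, a sorting nexin that recycles the transferrin receptor, was higher in NDRG1-eGFP cells, at 14.11, 14.34 and 14.00, against 13.60, 13.46 and 13.48 in PLP-GFP cells (0.63 ± 0.12, adjusted p = 0.00174). The iron chaperone Pcbp2 was higher too (0.86 ± 0.25, adjusted p = 0.0159), but lost the call without NDRG1-eGFP replicate 1, PLP-GFP replicate 2 or PLP-GFP replicate 3. Of its windows 29.1% are shared, and 51.5% of those of its longest mRNA. Slc39a14, a zinc and iron importer, was lower (-0.91 ± 0.20, adjusted p = 0.00452), as was Herc2, a ubiquitin ligase reported to act on the IRP2 regulator FBXL5 (-0.48 ± 0.12, adjusted p = 0.00711). With the length trend removed Snx3, Slc39a14 and Herc2 were no longer called, and Snx3 (-0.01) and Herc2 (0.23) changed sign.

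Of 19 measured heme genes 9 were called higher in NDRG1-eGFP cells against PLP-GFP cells and none lower, with a median of 0.50, where 26.1% of all genes were higher and 22.2% lower. Removing the length trend left 6 called higher and none lower (31.6%), against 14.2% and 16.5% of all genes. The erythroid markers given beside Tfrc went both ways in this comparison, with 3 called higher, 1 lower and a median log2 fold change of -1.73. Their part in the heme genes was not tested. The biliverdin reductase Blvra, which turns the product of heme oxygenase into bilirubin, had 11.47, 11.45 and 11.19 in NDRG1-eGFP cells, against 10.25, 10.12 and 10.26 in PLP-GFP cells (1.17 ± 0.15, adjusted p = 0.000298). Also higher were the heme synthesis enzyme Uros (1.35 ± 0.19), the heme and porphyrin exporter Abcg2 (1.56 ± 0.26), the lysosomal heme transporter Slc48a1 (0.66 ± 0.11) and Por (0.67 ± 0.13), the reductase that feeds electrons to heme oxygenases, with adjusted p of 0.000417, 0.00103, 0.000954 and 0.0024. Iron-sulfur cluster genes numbered 27 of 30, with 14 higher and 2 lower (59.3%, against 48.3% of all genes) and a median of 0.61, but 4 higher and 4 lower with the length trend removed (29.6%, near the 30.6% of all genes). Higher were the cytosolic assembly factor Fam96b (1.13 ± 0.15), the ferredoxin Fdx1l (1.48 ± 0.24) and the ferredoxin reductase Fdxr (0.90 ± 0.14), the last not called with the length trend removed. The cluster carrier Isca1 was lower (-1.30 ± 0.16), with 14.2% of all its windows shared with other loci and 71.2% of those of its longest mRNA. The part of shared sequence in the Isca1 difference was not tested. The adjusted p of these 4 genes ran from 0.000221 to 0.000904.

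**Figure D4:**
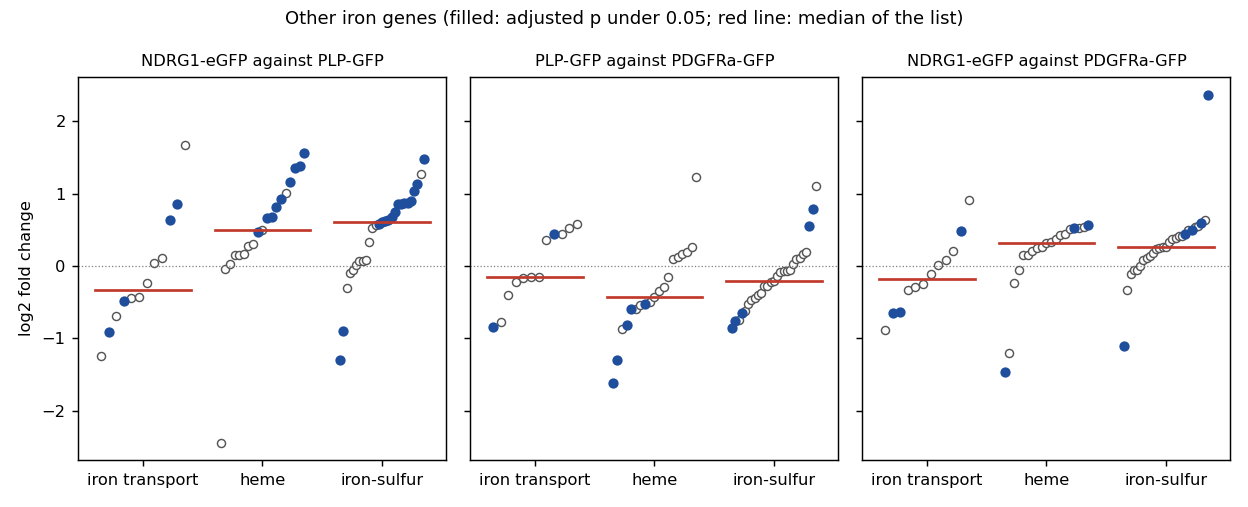
Log2 fold change (vertical axis) of the measured genes of 3 iron lists in the 3 comparisons, sorted within each list; filled points have an adjusted p under 0.05 and the red line is the median of the list. For NDRG1-eGFP against PLP-GFP the medians are -0.33 for iron transport, 0.50 for heme and 0.61 for iron-sulfur genes.

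For PLP-GFP against PDGFRa-GFP 12 of the 58 were called, 3 higher and 9 lower, where 8.46% of all genes were called higher and 8.53% lower. Without PLP-GFP replicate 2 none of the 58 was called, and without PLP-GFP replicate 3, PDGFRa-GFP replicate 2 or PLP-GFP replicate 1 there were 1, 3 and 5. The share of all genes called in those fits is not given here. With the length trend removed 3 of the 58 (5.17%) were called, Abcg2, Lrp1 and Pcbp2, all lower, against 8.09% of all genes (3.08% higher and 5.01% lower), so every other gene named here lost its call. Heme genes had 5 lower and none higher, with a median of -0.43. Among the 5 were Abcg2 (-1.29), Uros (-0.81), Blvra (-0.60) and Lrp1 (-1.62), the receptor for heme bound to hemopexin. The adjusted p of these genes ran from 0.0134 to 0.0288. Transport genes had 1 higher, the iron importer Slc11a2 (0.44 ± 0.12, adjusted p = 0.0366), and 1 lower, Pcbp2 (-0.84 ± 0.25, adjusted p = 0.043). Iron-sulfur genes had 2 higher, among them the chaperone Hspa9 (0.55), and 3 lower, Fam96b (-0.75), Fdx1l (-0.85) and Isca2 (-0.64), and the adjusted p of the genes named ran from 0.0136 to 0.0423. Fibroblast markers moved with this comparison: 8 of 9 measured were called lower, at 0.0004% to 0.0009% of the sum in PLP-GFP libraries and 0.0140% to 0.0267% in PDGFRa-GFP libraries. Fibroblasts express Lrp1 strongly, and their part in these values was not tested.

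For NDRG1-eGFP against PDGFRa-GFP 11 of the 58 were called, 7 higher and 4 lower, against 10.7% and 10.4% of all genes. Without PDGFRa-GFP replicate 3 there were 24, and the share of all genes called without that library is not given here. With the length trend removed there were 3, all lower (5.17%, against 14.4% of all genes, 4.49% higher and 9.92% lower). Isca1 (-1.10 ± 0.16, adjusted p = 0.00129), Herc2 (-0.63 ± 0.12, adjusted p = 0.005) and Nfs1 (0.60 ± 0.12, adjusted p = 0.00725), the desulfurase that supplies sulfur for the clusters, were called in all 9 fits that left out 1 library, and Isca1 alone of these with the length trend removed. The others were called in some of these fits and not in others: Snx3 (0.48), Por (0.52), Blvra (0.57), Fdxr (0.50), Narfl (0.44) and Glrx5 (2.37) higher, and Pcbp1 (-0.65) and Lrp1 (-1.46) lower, with adjusted p of 0.0182 to 0.0406. Snx3 lost its call without NDRG1-eGFP replicate 2 or PDGFRa-GFP replicate 1, and Por without NDRG1-eGFP replicate 1 or 2 or PDGFRa-GFP replicate 2. Blvra lost it without NDRG1-eGFP replicate 1 or 2, PLP-GFP replicate 3 or PDGFRa-GFP replicate 1, and Lrp1 without NDRG1-eGFP replicate 2 or 3, PLP-GFP replicate 2 or PDGFRa-GFP replicate 1 or 2. Fdxr, Narfl, Glrx5 and Pcbp1 lost it in 6, 8, 8 and 7 of the 9 fits. Glrx5 had low values, 7.14, 7.05 and 6.54 in NDRG1-eGFP libraries, against 3.28, 4.21 and 6.14 in PDGFRa-GFP libraries.

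Of 9 other mRNAs known or proposed to carry iron-responsive elements, 8 were measured. For NDRG1-eGFP against PLP-GFP 2 were lower and none higher, with a median of -0.22, and 2 of 8 is near the 22.2% of all genes called lower. Epas1, the hypoxia-inducible factor HIF-2 alpha with an element in its 5′ UTR, had 10.24, 10.33 and 9.68 in NDRG1-eGFP cells, against 11.88, 11.84 and 11.91 in PLP-GFP cells (-1.79 ± 0.25, adjusted p = 0.000347). Cdc42bpa, a kinase whose human mRNA has an element in the 3′ UTR, had 12.30, 12.13 and 12.20 in NDRG1-eGFP cells, against 13.91, 14.12 and 14.05 in PLP-GFP cells (-1.81 ± 0.18, adjusted p = 4.34e-05). Both were called with the length trend removed. Among those not called were Slc11a2 (-0.23), Pfn2 (0.15), Cdc14a (-0.21), App (-0.20) and the erythroid heme synthesis enzyme Alas2 (-2.44 ± 1.05, adjusted p = 0.0785), whose NDRG1-eGFP libraries ran from 5.14 to 8.46. Cdc42bpa was lower also against PDGFRa-GFP cells (-1.37 ± 0.18, adjusted p = 0.000491), where Epas1 missed the threshold (-0.73 ± 0.25, adjusted p = 0.0593). PLP-GFP against PDGFRa-GFP gave a higher Epas1 (1.07 ± 0.25, adjusted p = 0.0205), lost without PLP-GFP replicate 2 or 3 or PDGFRa-GFP replicate 2, and the higher Slc11a2 given above. Neither was called with the length trend removed (Epas1 0.74, adjusted p = 0.0892, and Slc11a2 0.19, adjusted p = 0.348).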

How the data were processed

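Each library is a deposited table of symbols and log2 values, normalized by the authors per the file headers. BWA, DESeq2 1.2.5 and build mm10 are named, without roles, per the submitters' processing notes, and depth is unknown. limma-trend (limma 3.58.1, R 4.3.3) was fitted to the values as deposited, with no constant added, on all 9 libraries with group means as terms. A floor of 1 reached in 3 or more libraries removed none of the 11315 genes. Tests were two-sided, with Benjamini-Hochberg adjustment over all genes. Permuting 3 against 3 libraries cannot give an exact p under 0.1 and was not done. Folds are first minus second group. The fit was tested on simulated data, with 200 of 11315 genes changed. Calls were made for 53% of 2-fold and 85% of 4-fold changes simulated between NDRG1-eGFP and PLP-GFP libraries. With PDGFRa-GFP as the second group these were 45% and 85% for PLP-GFP, and 37% and 82% for NDRG1-eGFP. In the data 48.3%, 17.0% and 21.1% of genes were called in the 3 comparisons, a larger share than was changed in the simulation. The Benjamini-Hochberg cutoff depends on that share, so these rates do not give the power of the comparisons themselves. A gene not called may still differ. Lengths (longest transcript), shared 50-base windows and hairpins came from GENCODE M21 for 11267 symbols. Named genes were all members, up to 5 per list and comparison with the smallest adjusted p among those called, all measured genes of the iron-responsive element list, and 3 correlated genes per member. The 19 alternatives per comparison were recentring, no filter, a mean of at least 8, adding 1 or 5 before taking log2 again, a replicate block, only the groups compared, length trends removed, stricter thresholds and leaving out each of 9 libraries. Members and lists were chosen with earlier results of these data known. Single values of some genes in these lists are not reported here, while counts and medians cover all measured genes.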

Additional observations from a re-analysis of the deposited data

How the results depend on the processing

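Depth is unknown, which limits what can be said of low values such as those of Hmox1 and Glrx5. The count of iron handling genes called for NDRG1-eGFP against PLP-GFP was 6, and 3 with the length trend removed or a log2 fold change of at least 1 required. Leaving out 1 library gave 4 to 7. For PLP-GFP against PDGFRa-GFP it was 2, then 1 with a replicate block or with only the groups compared, 0 with the length trend removed, an adjusted p under 0.01 or a log2 fold change of at least 1, and 1 to 4 without 1 library. For NDRG1-eGFP against PDGFRa-GFP it was 3, and 3 to 4 without 1 library. The other iron genes called for NDRG1-eGFP against PLP-GFP were 29, then 17 with the length trend removed, 8 with a log2 fold change of at least 1, and 21 to 36 without 1 library. For PLP-GFP against PDGFRa-GFP they were 12, then 4 with a replicate block or only the groups compared, 3 with the length trend removed, 0 with an adjusted p under 0.01, 2 with a log2 fold change of at least 1, and 0 to 17 without 1 library. For NDRG1-eGFP against PDGFRa-GFP they were 11, then 7 when recentred, 4 with a replicate block, 3 with only the groups compared, the length trend removed, an adjusted p under 0.01 or a log2 fold change of at least 1, and 3 to 24 without 1 library. Of all genes 48.3%, 17.0% and 21.1% were called in the 3 comparisons, and 30.6%, 8.09% and 14.4% with the length trend removed. The share of all genes called under the other settings is not given here. These counts thus do not show whether iron genes moved more than other genes. The causes were not tested.

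Signs turned with the length trend removed for Trf (-0.13), Fth1 (-0.27) and Hmox1 (-0.0030) in NDRG1-eGFP against PLP-GFP, for Tfrc (-0.15), Aco1 (-0.0174) and Ncoa4 (-0.0843) in PLP-GFP against PDGFRa-GFP, and for Trf (-0.0405), Ireb2 (0.0162) and Hmox1 (-0.0826) in NDRG1-eGFP against PDGFRa-GFP. Of these, Fth1 alone had been called. Leaving out 1 library turned values that were not called. For PLP-GFP against PDGFRa-GFP these were Trf (-0.14 to 0.18 over the fits without 1 library), turned without PLP-GFP replicate 2 or 3 (-0.0265) or PDGFRa-GFP replicate 3, and Ncoa4 (-0.078 to 0.48), turned without PDGFRa-GFP replicate 1 (-0.0135) or 2. For NDRG1-eGFP against PDGFRa-GFP these were Ireb2 (-0.27 to 0.0445), turned without PDGFRa-GFP replicate 1, and Hmox1 (-0.13 to 0.52), turned without PDGFRa-GFP replicate 2. Same-numbered libraries correlated at -0.23 to 0.09 in their deviations from group means, and libraries with different numbers at -0.13 to 0.23. With 3 libraries per group this cannot tell whether same-numbered libraries shared a preparation. The replicate block moved the adjusted p of Fth1 in NDRG1-eGFP against PLP-GFP to 0.0854 and of Ireb2 in PLP-GFP against PDGFRa-GFP to 0.0776.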
